A study of Mus musculus with 8 samples.

Results

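Transcripts of the Atf4 arm of the amino acid stress response and of serine synthesis were followed in mouse heart with and without a Carns transgene. The 10 genes were Atf4, Ddit3, Trib3, Chac1, Asns, Phgdh, Psat1, Psph, Shmt2 and Mthfd2. They were chosen by name, with each symbol matched to its NCBI Gene number, and all 10 were found among the 18215 genes of the deposited tables. Hearts of Carns transgenic mice (TG) and of Wild Type mice (WT) gave 4 libraries of polyadenylated mRNA each. The promoter that drives the transgene, the strain, the age of the animals and whether each library is a separate animal are not given in the sources used here. If the libraries of a group share a source, the p-values measure only technical spread.

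When amino acids run short or proteins misfold, kinases phosphorylate the initiation factor eIF2, most translation slows, and translation of the Atf4 transcript rises. The Atf4 protein, a basic leucine zipper factor, pairs with C/EBP-type partners and switches on genes for amino acid import, asparagine and serine synthesis and mitochondrial one-carbon metabolism. In the heart this response is well known from mitochondrial disease models. Since Atf4 is controlled largely at translation, the level of its mRNA is not a measure of its protein.

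The DNA letters that Atf4 and C/EBP factors are known to read together were looked up in the RefSeq promoter windows of assembly GRCm38.p6, which run from 250 bases before to 50 bases after each annotated start. All 10 genes had a window, and Psat1 had more than 1, which gave 11 windows. The composite element TGATGNAA, searched on both strands, was in the windows of 3 of the 10 genes, Asns, Chac1 and Trib3. It was in 3.97% of all 32851 windows. The longer TGATGAAAC, which overlaps it and is known from the human asparagine synthetase promoter as a nutrient-sensing response element, was in the Asns window and in 0.247% of all windows. Neither the cyclic AMP response element TGACGTCA (1.79% of all windows) nor the ER stress response element (0.119%) was in any of the 11 windows. A match describes letters and does not show that a factor is bound in these hearts. The 3 stretches are shown because they are the members whose own start regions carry the element, with the match in capitals. Asns is shown for the 250 bases before its start, chr6:7693210-7693459 on the minus strand, Chac1 for chr2:119350992-119351241 on the plus strand, and Trib3 for chr2:152344029-152344056 on the minus strand, a short stretch around a match that begins 15 bases into the transcript.
Asns: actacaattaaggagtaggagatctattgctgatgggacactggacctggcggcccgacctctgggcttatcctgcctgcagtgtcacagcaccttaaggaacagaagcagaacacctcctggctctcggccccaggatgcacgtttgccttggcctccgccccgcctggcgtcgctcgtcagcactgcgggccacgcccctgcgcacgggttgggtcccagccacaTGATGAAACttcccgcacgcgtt
Chac1: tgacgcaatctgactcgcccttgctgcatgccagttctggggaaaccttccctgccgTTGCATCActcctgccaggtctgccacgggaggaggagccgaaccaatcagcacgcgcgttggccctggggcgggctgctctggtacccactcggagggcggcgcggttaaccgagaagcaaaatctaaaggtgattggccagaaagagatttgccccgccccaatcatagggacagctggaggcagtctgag
Trib3: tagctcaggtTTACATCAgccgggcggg
The Asns match lay 23 to 15 bases before the start and read forward. The Chac1 match lay 193 to 186 bases before the start and, as in Trib3, was on the opposite strand.

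Carns1 itself stood between 19071 and 24288 CPM (counts scaled by library size, TMM) in TG and between 44.5 and 73.3 CPM in WT, so the labels and the transgene's transcript went together in all 8 libraries. Library totals ran from 6261193 to 7897629 expected counts. The heart muscle markers Myh6, Myl2, Myl3, Tnnt2, Tnni3 and Actc1 summed to 61563 to 76527 CPM. The libraries fell into a deeper class, TG replicates 1 and 3 and WT replicates 1 and 2, and a shallower class with the other 4, and 29.9% of tested genes had no overlap between these classes. TG replicate 2 stood apart by markers of fat and of atrial muscle. The 4 atrial markers (Myl7, Myl4, Sln and Nppa), all highest there, summed to 856 CPM, against 61.3 to 216 CPM in its fellow TG libraries and 147 to 260 CPM in WT. The fat marker sum over 10 genes was 3458 CPM there, against ranges of 80.8 to 166 CPM for its 3 fellow TG libraries and 65.6 to 115 CPM for WT, all 10 were highest in it, and among the other 7 libraries Ucp1 and Lep were at 0 in 5 and Retn in 3. TG replicate 4 was next highest for Myl7, Myl4 and Sln, at 46.8, 63.7 and 14.9 CPM, but not for Nppa, at 90.2 CPM. Its fat marker sum of 166 CPM was also the next highest.

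None of the 10 genes differed between TG and WT beyond the spread between libraries. All 10 passed the filter on low counts, 0 of 10 passed an adjusted p of 0.05 in either direction, and 0 of 10 had an unadjusted p under 0.05 (edgeR quasi-likelihood test). DESeq2 also called 0 of 10. Over all 12670 genes tested the same edgeR rule called 0.0158%, 1 gene higher (0.00789%) and 1 lower (0.00789%), and 3.49% had an unadjusted p under 0.05. The gene called higher was Carns1, the gene of the transgene. The groups overlapped in all 10 genes, where 2.53% of all genes had no overlap. Of the 10, 6 had a positive and 4 a negative log2 fold change, with a median of 0.02 beside a median of -0.00 over all genes. The sizes ran from -0.54 for Mthfd2 to 0.35 for Psph, with a median absolute log2 fold change of 0.19 (0.10 over all genes). These absolute sizes were not compared at matched counts, and most of the 10 genes lay below the median FPKM of tested genes.

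**Figure D1:**
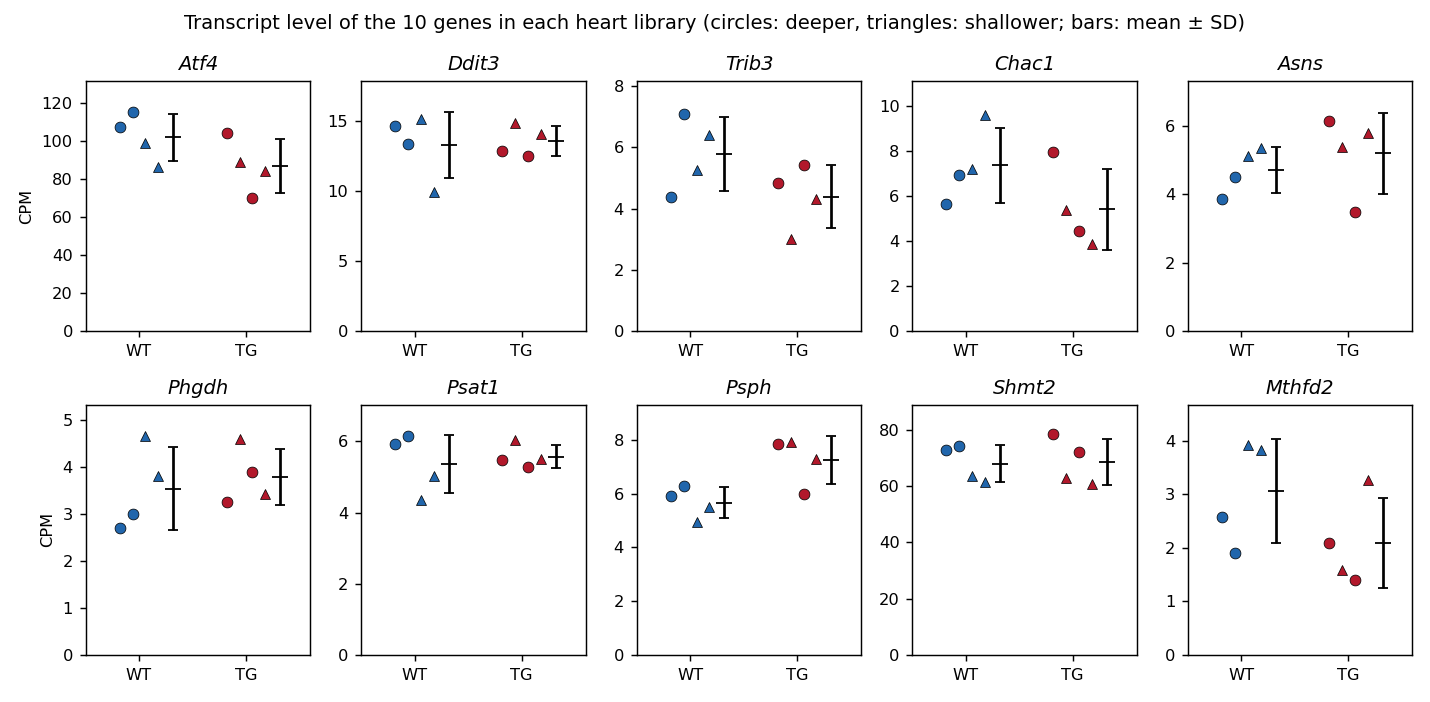
Each panel plots the CPM of 1 gene (vertical axis, from 0) in the 4 WT (blue) and 4 TG (red) heart libraries, with circles for the deeper and triangles for the shallower libraries and a bar for the mean ± SD. The groups overlap in every panel. Psph has 3 TG libraries above all WT libraries and TG replicate 3, at 5.98 CPM, below only WT replicate 2, at 6.28 CPM. Asns also has 3 TG libraries above all WT libraries, with 1 below them all, and Chac1 has 3 below them all.

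The intervals show how large a difference these 8 libraries leave room for. The 95% interval lay within a 1.5-fold difference in either direction for 4 of the genes, Atf4, Ddit3, Psat1 and Shmt2. It lay within a 2-fold difference for 9 of the 10. Mthfd2, the least abundant, was the exception, with an interval that reached down to a fold of 0.417.

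**Figure D2:**
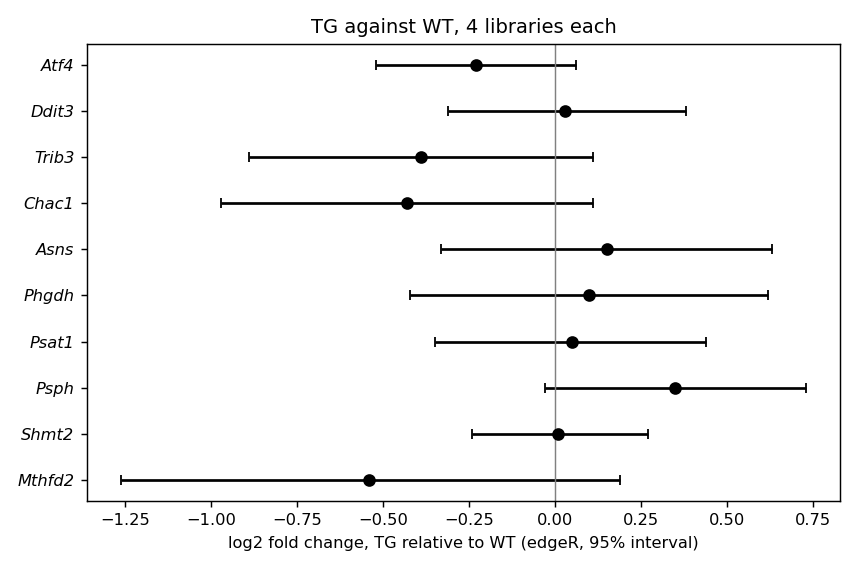
The points are log2 fold changes of TG relative to WT from edgeR (horizontal axis) and the bars their 95% intervals, from 4 libraries a group. Every bar crosses 0, from the narrow one of Shmt2 (-0.24 to 0.27) to the wide one of Mthfd2 (-1.26 to 0.19).

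Per length of transcript the genes kept a clear order at the top. Atf4 stood at 58.2 ± 8.68 FPKM (fragment counts scaled by transcript length and library size, SD over all 8 libraries), above 90.2% of tested genes. Shmt2, the mitochondrial serine hydroxymethyltransferase, followed at 29.4 ± 2.21 FPKM and Ddit3 at 15.7 ± 2.04 FPKM. These 3 did not overlap with each other or with the rest in any library. The other 7 genes were all below the median of 6.95 FPKM over tested genes. Psph and Chac1 stood at 4.16 ± 0.695 and 4.04 ± 1.26 FPKM, then Asns at 2.57 ± 0.509, Psat1 at 2.50 ± 0.244, Trib3 at 2.46 ± 0.606, Phgdh at 1.96 ± 0.404 and Mthfd2 at 1.25 ± 0.511 FPKM. Each pair of neighbours in this order overlapped. Farther apart, Psph lay above Asns, Psat1, Phgdh and Mthfd2 without overlap, and Mthfd2 was the lowest of the 7 in every library. The first enzyme of serine synthesis, Phgdh, was listed lower per length than the last, Psph, in every library, and both were far below Shmt2, which uses serine.

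**Figure D3:**
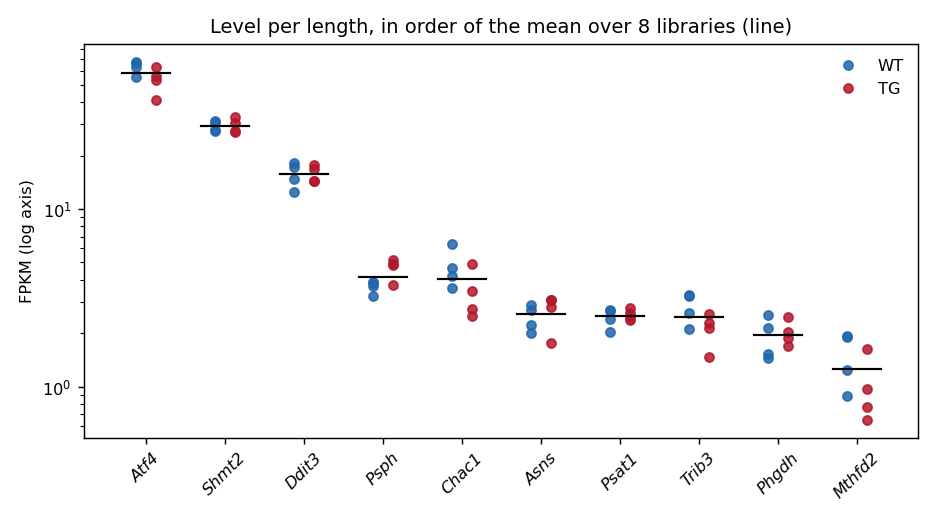
FPKM on a log axis is plotted for each gene in the 4 WT (blue) and 4 TG (red) libraries, with a line at the mean over all 8. Atf4, Shmt2 and Ddit3 form 3 separate steps from 58.2 to 15.7 FPKM, and the other 7 genes lie between 0.65 and 6.35 FPKM, each overlapping its neighbour in the order.

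Atf4, the factor that leads the response, was measured at 104, 88.7, 70.1 and 83.9 CPM in TG replicates 1 to 4 and at 107, 115, 98.8 and 86.0 CPM in WT replicates 1 to 4. The lowest value was TG replicate 3 and the highest WT replicate 2, and 2 of the 4 TG libraries lay below every WT library. The means were 86.6 ± 13.9 and 102 ± 12.3 CPM (SD, n = 4 each), a log2 fold change of -0.23 (SE 0.13, 95% interval -0.52 to 0.06, edgeR, Benjamini-Hochberg adjusted p = 1.0, as for each of the 10). Without TG replicate 3 it was -0.14, and without TG replicate 1 it was -0.33. With 504 to 842 counts a library, counting error alone gives a coefficient of variation of about 4.06% in TG, against an observed 16.1%. In whole tissue, fewer cells of a type and less RNA per cell cannot be told apart, for this gene and the others. The 5 macrophage markers, all tested, summed to 471, 346, 287 and 363 CPM in TG and 435, 498, 405 and 481 CPM in WT replicates 1 to 4. Their sum was lowest in TG replicate 3 and highest in WT replicate 2, as Atf4 was. Each marker was lowest in TG replicate 3. The log2 fold changes of the 5 markers were all negative, from -0.36 for Csf1r to -0.21 for Adgre1, and none passed. The macrophage list was among 12 cell type marker lists summed. C1qa (169 CPM) and C1qb (167 CPM) were high in WT replicate 2. Csf1r (122 CPM), Cd68 (33.3 CPM) and Adgre1 (22.5 CPM) instead peaked in WT replicate 4, where Atf4 had its lowest WT value, 86.0 CPM. The part of macrophages in the Atf4 level was not tested.

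Ddit3 encodes CHOP, a partner factor that Atf4 induces under endoplasmic reticulum stress. Its values were 12.9, 14.9, 12.5 and 14.1 CPM in TG and 14.7, 13.4, 15.2 and 9.93 CPM in WT. All 4 TG values lay within the WT range. The log2 fold change was 0.03 (SE 0.16, 95% interval -0.31 to 0.38). Ddit3 overlaps the tRNA synthetase gene Mars1 on the opposite strand, by 68 bases in the GENCODE M21 annotation, where it is called Mars, and the authors' use of strand is not given, so reads from that overlap cannot be assigned.

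Trib3 and Chac1, genes that lie downstream of Atf4 and CHOP, both had lower means in TG without passing the test. Trib3, a pseudokinase that feeds back on the response, stood at 4.83, 3.01, 5.42 and 4.31 CPM in TG and 4.38, 7.09, 5.26 and 6.42 CPM in WT (log2 fold change -0.39, SE 0.23). Its lowest library was TG replicate 2, the library highest in fat and atrial markers, and without it the log2 fold change was -0.25. Chac1, a cyclotransferase that splits glutathione, stood at 7.96, 5.39, 4.45 and 3.86 CPM in TG and 5.67, 6.96, 7.22 and 9.63 CPM in WT (log2 fold change -0.43, SE 0.25). TG replicate 1 was second only to WT replicate 4, while the other 3 TG libraries lay below every WT library. Without TG replicate 1 the Chac1 value was -0.68, and without WT replicate 4 it was -0.28. The Chac1 difference was -0.01 among the deeper libraries and -0.86 among the shallower ones, and the difference between these was not tested.

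Asns, which makes asparagine and carries the element shown in its promoter, had a higher mean in TG, opposite in sign to Trib3 and Chac1, and did not pass the test. Its values were 6.13, 5.39, 3.48 and 5.79 CPM in TG and 3.86, 4.50, 5.11 and 5.35 CPM in WT. Of the TG libraries 3 were above every WT library and 1, TG replicate 3, was below every one. The log2 fold change was 0.15 (SE 0.22, 95% interval -0.33 to 0.63). It was 0.30 without TG replicate 3, 0.06 without TG replicate 1 or WT replicate 1, and 0.09 without TG replicate 4.

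Serine is made from the glycolytic intermediate 3-phosphoglycerate by Phgdh, Psat1 and Psph in turn. Phgdh, the dehydrogenase that opens the path, stood at 3.26, 4.60, 3.89 and 3.42 CPM in TG and 2.70, 3.0, 4.66 and 3.82 CPM in WT (log2 fold change 0.10, SE 0.24). Psat1, the aminotransferase of the next step, stood at 5.48, 6.03, 5.28 and 5.50 CPM in TG and 5.92, 6.14, 4.36 and 5.04 CPM in WT (log2 fold change 0.05, SE 0.18). For both enzymes every TG library fell inside the WT range. Psph, the phosphatase that releases serine, stood at 7.83, 7.93, 5.98 and 7.28 CPM in TG and 5.92, 6.28, 4.96 and 5.50 CPM in WT. Only TG replicate 3 lay inside its WT range. The means were 7.25 ± 0.898 and 5.67 ± 0.565 CPM (SD, n = 4 each), a log2 fold change of 0.35 (SE 0.18, 95% interval -0.03 to 0.73), which had the smallest p of the 10 genes before adjustment and an edgeR adjusted p of 1.0. Psph overlaps a transcript of Cct6a on the opposite strand over 452 bases in GENCODE M21, and Cct6a is also counted in the tables. Psat1 overlaps the pseudogene Gm3329 over 556 bases there.

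Serine then gives up a one-carbon unit in the mitochondrion. Shmt2, which performs that step, stood at 78.5, 63.0, 72.3 and 60.9 CPM in TG and 73.0, 74.2, 63.6 and 61.3 CPM in WT, with means that differed by less than their SD (68.7 ± 8.23 and 68.0 ± 6.54 CPM, SD, n = 4 each). The log2 fold change was 0.01 (SE 0.12, 95% interval -0.24 to 0.27), the narrowest interval of the 10. Its libraries were sorted by depth class. The 4 deeper libraries lay between 72.3 and 78.5 CPM and the 4 shallower between 60.9 and 63.6 CPM, and Shmt2 was the 1 gene of the 10 without overlap between these classes, where 29.9% of all tested genes had none. Within the classes the log2 fold change was 0.04 (deeper) and -0.01 (shallower), and the part of depth in its level was not tested further.

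**Figure D4:**
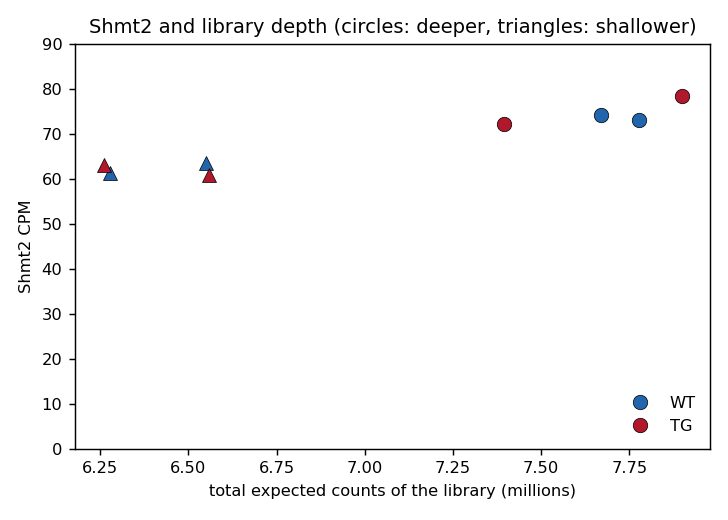
Shmt2 CPM (vertical axis, from 0) is plotted against the total expected counts of each library (axis in units of 1000000), with WT in blue, TG in red, circles for the deeper and triangles for the shallower libraries. The circles lie at 72.3 CPM or above and the triangles at 63.6 CPM or below, with both genotypes in each set.

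Mthfd2, the mitochondrial dehydrogenase and cyclohydrolase that oxidises the folate-bound one-carbon unit, is known to be low in adult tissues. It had 10 to 26 counts a library, at 2.09, 1.59, 1.39 and 3.27 CPM in TG and 2.58, 1.91, 3.91 and 3.82 CPM in WT. TG replicate 4 and WT replicates 3 and 4, all shallower libraries, were the 3 highest. The log2 fold change of -0.54 (SE 0.33) was the largest in size of the 10 genes and rested on the fewest counts, with a coefficient of variation of 40.5% in TG where counting alone gives 26.3%. Without TG replicate 4 it was -0.83 (edgeR adjusted p = 1.0). Mthfd2 shares 2799 bases of GENCODE M21 with the unnamed model Gm43890 on its own strand, which the tables do not list, and Shmt2 shares 32 bases with Ndufa4l2 on the opposite strand, which they do.

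Spread within groups was above the counting error in both groups for 5 genes, Atf4, Trib3, Chac1, Shmt2 and Mthfd2. For Psat1 and Psph it was below it in both. At 29 to 60 counts a library these 2 enzymes of serine synthesis varied no more than the counting of reads would give. Each spread rests on 4 libraries, and no difference from the counting error was tested. For Trib3 the coefficient of variation was 23.3% against 18.0% from counting in TG, and 20.8% against 15.7% in WT.

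Levels of Atf4 mRNA were set against those of the other 9 genes over the 8 libraries, on log2 CPM. Pearson's r ran from -0.49 for Phgdh to 0.47 for Chac1, and Spearman's rho from -0.57 for Phgdh to 0.69 for Shmt2. No relation passed (exact permutation test, two-sided, smallest Benjamini-Hochberg adjusted p over 9 relations 0.768 for r, and smallest unadjusted p for rho 0.0694, that of Shmt2). Centred on genotype group, r ran from -0.45 for Phgdh to 0.79 for Psph, whose uncentred r was -0.00. Centred on depth class, r ran from -0.42 to 0.50, and each class alone, with 4 libraries, is too small for a test. Without WT replicate 2 and TG replicate 3, the libraries farthest from the Atf4 median, r was 0.86 for Shmt2, 0.25 for Chac1, -0.48 for Asns and -0.44 for Phgdh over 6 libraries. Likeness to Atf4 was also ranked among 10219 other genes of at least 5 CPM, leaving out placeholder symbols (Gm, Rik, LOC) and unmatched numbers. Those most like Atf4 over the 8 libraries were Ier2 (r = 0.968) and Dusp1 (0.956), both known as rapid response genes. D8Ertd738e (0.956), Folr2, a folate receptor known from tissue macrophages (0.956), and Trappc6a (0.949) came with them. They were picked from these genes by this measure, so the values are a description.

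The wider response was measured in 7 lists with 95 genes, of which 90 were tested. None of the 90 passed an adjusted p of 0.05 in either direction with edgeR or DESeq2 over all 8 libraries, 50 had a positive and 40 a negative log2 fold change, and the median was 0.01. An unadjusted p under 0.05 was found for 3 of the 90, Eif2ak4, Atf3 and Nupr1, beside 3.49% of all genes. The groups did not overlap in 2 of the 90, Eif2ak1 and Afg3l2, beside 2.53% of all genes. Where a pair of means follows, TG comes first.

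**Figure D5:**
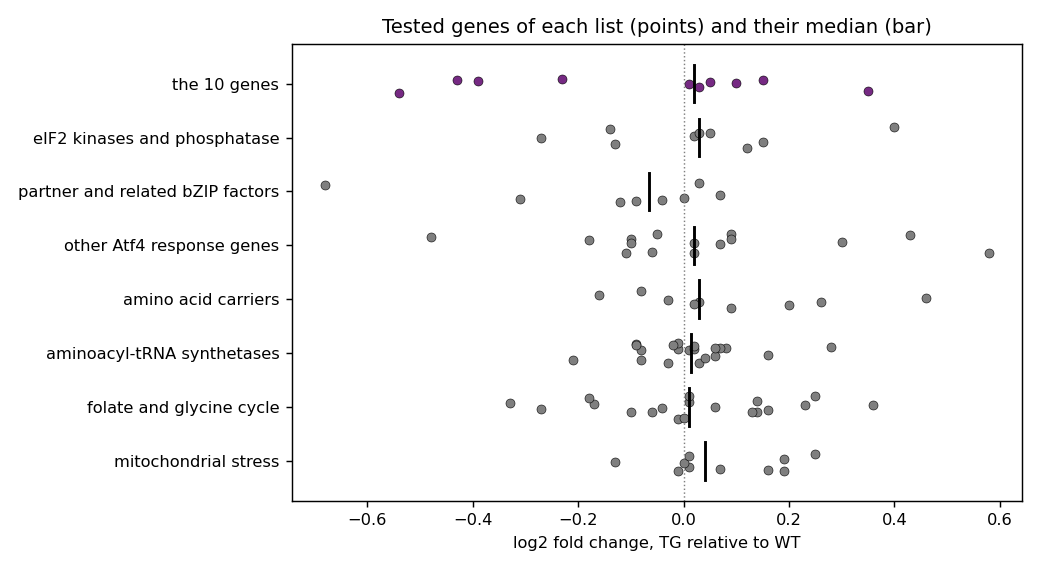
Each point is the log2 fold change of TG relative to WT (horizontal axis) of 1 tested gene, in rows for the 10 genes (purple) and 7 further lists (grey), with a bar at the median of the row. All medians lie between -0.06 and 0.04.

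Among the 9 genes of eIF2 phosphorylation, which include a subunit of eIF2 itself, 6 were positive and 3 negative, with a median of 0.03. Eif2ak4, the kinase GCN2 that senses uncharged tRNA, averaged 8.32 ± 1.21 CPM with the transgene against 6.29 ± 0.602 CPM without it (n = 4 and 4, SD; log2 fold change 0.40, SE 0.18, edgeR adjusted p = 1.0). Eif2ak1, the kinase that relays mitochondrial stress and haem lack, lay between 56.9 and 62.5 CPM in TG and between 50.7 and 55.7 CPM in WT. Its groups did not overlap, yet the log2 fold change of 0.15 did not pass (edgeR adjusted p = 1.0). The interferon-induced kinase Eif2ak2 stood at 8.17 ± 1.99 and 9.87 ± 1.47 CPM and the phosphatase subunit Ppp1r15a, an Atf4 target, at 41.9 ± 5.99 and 45.9 ± 4.30 CPM (SD, n = 4 each).

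Of 8 partner and related leucine zipper factors, 2 were positive and 6 negative, with a median of -0.06. Atf3, which is itself induced by Atf4 and also by immediate early signals, stood at 8.09, 7.61, 6.39 and 11.9 CPM in TG and 17.9, 16.6, 12.9 and 6.72 CPM in WT. WT replicate 4 lay among the TG values and the other 3 WT libraries above all of them. Its log2 fold change was -0.68 (SE 0.28, edgeR adjusted p = 1.0). Within the deeper libraries, 2 against 2, Atf3 passed at -1.25 (edgeR adjusted p = 0.00549), among 59 genes called of 12754 tested there. Within the shallower libraries its log2 fold change was -0.00, and the difference between these was not tested. Cebpb stood at 31.4 ± 10.1 and 39.0 ± 10.8 CPM, Atf5 at 142 ± 9.46 and 154 ± 10.1, Xbp1 at 105 ± 9.47 and 111 ± 11.3, and the abundant Nfe2l1 at 637 ± 54.7 and 625 ± 24.0 CPM (SD, n = 4 each).

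Other genes of the Atf4 response were 8 positive and 7 negative among 15 tested, with a median of 0.02. Nupr1, a small stress-induced nuclear protein, averaged 7.17 ± 1.38 CPM with the transgene against 4.80 ± 1.19 CPM without it (n = 4 and 4, SD; log2 fold change 0.58, SE 0.22, edgeR adjusted p = 1.0). Gdf15, a secreted hormone of mitochondrial stress, stood at 2.15 ± 0.819 and 1.62 ± 0.749 CPM. Fgf21, the other hormone of that kind, had at most 2 counts in a library, below the floor of 3 counts, and was not tested. Cth, which makes cysteine, stood at 1.76 ± 0.222 and 2.48 ± 0.879 CPM, Herpud1, of endoplasmic reticulum protein disposal, at 255 ± 24.3 and 289 ± 30.7, and the aspartate aminotransferase Got1 at 911 ± 62.1 and 854 ± 74.3 CPM (SD, n = 4 each).

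Of the amino acid carriers 9 were tested, with 6 positive and 3 negative and a median of 0.03. Slc1a5, which carries glutamine and serine among others, reached 81.7 CPM in TG replicate 2, against a range of 30.7 to 36.7 CPM over the remaining 7 libraries. Its log2 fold change of 0.46 (edgeR adjusted p = 1.0) was 0.05 without that library, where fat markers summed to 3458 CPM and atrial markers to 856 CPM. Their part in its level was not tested. Slc38a1, Slc1a4 and Slc7a1 averaged 17.3 ± 1.52, 5.35 ± 1.35 and 60.8 ± 13.9 CPM with the transgene against 14.5 ± 1.88, 4.67 ± 0.630 and 68.0 ± 19.8 CPM without it (SD, n = 4 each). Slc3a2, the shared heavy chain of several exchangers, stood at 92.6 ± 9.28 and 94.7 ± 7.26 CPM.

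In the folate and glycine cycle 19 of 22 genes were tested, 10 positive and 9 negative, with a median of 0.01. Sfxn1, which brings serine into mitochondria, was also highest in TG replicate 2, the library highest in fat and atrial markers. It stood at 20.3 CPM there, against a range of 9.69 to 12.9 CPM over the remaining 7 libraries. The log2 fold change was 0.36, and 0.15 without TG replicate 2. Mtr, methionine synthase, stood at 54.8 ± 7.76 and 45.9 ± 6.26 CPM, Tyms, thymidylate synthase, at 30.5 ± 2.18 and 34.2 ± 4.99, and Dld, a subunit shared by the glycine cleavage system, at 175 ± 49.8 and 174 ± 46.5 CPM (SD, n = 4 each). Gldc and Cbs, of glycine cleavage and of cysteine synthesis, had at most 8 and 5 counts in a library and were not tested.

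The 20 aminoacyl-tRNA synthetase genes had the smallest median absolute log2 fold change of the 7 lists, 0.06, with values from -0.21 for Lars to 0.28 for Dars, 11 positive and 9 negative and a median of 0.02. Kars, the most abundant per length, stood at 138 ± 15.8 and 136 ± 3.70 CPM, Aars at 90.3 ± 7.82 and 85.2 ± 8.41, and Rars at 30.0 ± 5.69 and 26.8 ± 1.93 CPM (SD, n = 4 each). Of 10 mitochondrial stress genes 7 were positive and 3 negative, with a median of 0.04. Afg3l2, an inner membrane protease, lay between 148 and 164 CPM in TG and between 134 and 142 CPM in WT, without overlap and without passing the test (log2 fold change 0.16, SE 0.09). Oma1, the protease that starts mitochondrial stress signalling to eIF2, stood at 32.7 ± 1.21 and 28.6 ± 3.82 CPM, and the chaperonins at 213 ± 47.2 against 179 ± 31.7 CPM for Hspd1 and 145 ± 30.4 against 127 ± 26.3 CPM for Hspe1 (SD, n = 4 each).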

How the data were processed

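Heart mRNA libraries, 4 TG and 4 WT, were grouped by title. Per the file headers, a deposited table per library holds NCBI Gene numbers and, for each, the expected count and the FPKM. The expected counts are the authors' estimates of reads or fragments per gene, not normalized, and the FPKM values were scaled by the authors by transcript length and library size. The submitters' processing notes name Bowtie2 and the build mm8. The counting program and the use of strand are not given in the sources used here. Genes missing from a library's table were taken as 0. Symbols came from the NCBI gene table of GRCm38.p6 (18174 of 18215 numbers matched). Since the builds differ, no position of a counted gene is taken from the files, and promoter positions are those of GRCm38.p6.

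Expected counts were rounded and fitted with edgeR 4.0.16 (R 4.3.3; filterByExpr with a minimum count of 10 and a minimum total of 15, TMM, quasi-likelihood F-test, group alone, two-sided, Benjamini-Hochberg over 12670 genes, threshold 0.05). The SE is the absolute log2 fold change over the square root of F, and 95% intervals use the fit's degrees of freedom. Log2 CPM used a prior count of 2. A count of 3, the floor, is 0.380 to 0.479 CPM and covers counting error only. Alternatives used DESeq2 1.42.0, limma 3.58.1 (voom, and log2(FPKM + 1) and log2(FPKM + 0.1)), other filters and scalings, depth class, a replicate block and fits without 1 library. The deeper and shallower classes are libraries above and below the midpoint of the range of totals. The scripts were tested on simulated counts. No pair of libraries of the same group agreed within sampling noise. The genes and lists were chosen with earlier results of these data known. Named genes were Carns1, the 10 genes, up to 4 genes of each list with the smallest p and its most abundant gene, and the 5 genes most like Atf4; 1 gene that this rule names is not reported here. Fgf21, Gldc and Cbs, and the marker genes, were named after their values were seen.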

Additional observations from a re-analysis of the deposited data

Results flagged for a closer look

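Among the 49 genes named by rule, 98 groups of 4 values were examined for a library far from the rest of its group, which chance alone flags in about 1 of 20 groups, and 2 values were found. Slc1a5 stood at 81.7 CPM in TG replicate 2, while the other 3 TG libraries lay between 34.5 and 35.9 CPM. Got1 stood at 964 CPM in WT replicate 2, while the other 3 WT libraries lay between 807 and 832 CPM. None of the 10 genes of the Atf4 response and serine synthesis had such a value.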

How the results depend on the processing

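Under 21 other settings 0 of the 10 genes was called, and the smallest adjusted p of any was 0.472 (Atf4 within the deeper libraries, edgeR). An unadjusted p under 0.05 (edgeR, voom or limma) was found for Atf4 in 4 of these settings, Psph in 3, Chac1 in 2 and Mthfd2 in 1. Of all genes it was found for 1167 of 12754 in the deeper libraries (Atf4) and 706 of 12725 in the shallower (Chac1). Without TG replicate 1 (Atf4 and Chac1) these were 623 of 12742, and without WT replicate 4 (Atf4) 562 of 12866. With voom (Atf4) they were 563 of 12670, and on the FPKM scales (Psph) 531 and 534 of 12670. Without TG replicate 3 (Psph) they were 423 of 12744, and without TG replicate 4 (Mthfd2) 378 of 12854. Over all genes the number called was 15 with DESeq2, 4 without a filter, 1 on each FPKM scale, 28 with depth class as a covariate, 59 among the deeper libraries and 4 among the shallower ones, 0 with Carns1 left out (441 at an unadjusted p under 0.05, edgeR), and 1 to 3 without 1 library. The replicate numbers paired the libraries poorly (correlation of deviations 0.24, -0.28, -0.18 and 0.40, with 3 of 8 libraries closest to their own number). With the replicate block 1 gene was called and 0 of the 10. The median of the 10 was -0.08 within the deeper libraries and between -0.06 and 0.03 without 1 library. Atf4, Trib3, Chac1, Asns, Psph and Mthfd2 kept their sign in every setting that tested them, and Asns, Phgdh, Mthfd2, Cth and Gdf15 were among the genes with no value at a mean of at least 5 CPM.

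Several log2 fold changes changed sign, and the cause was not tested. Ddit3 was -0.01 with voom and -0.14 in the deeper libraries, Phgdh -0.08 in the shallower, Psat1 -0.16 in the deeper, and Shmt2 -0.01 with voom and -0.01 in the shallower. Nfe2l1 was -0.01 on both FPKM scales and -0.05 in the shallower libraries, Dld -0.00 on both FPKM scales, Kars -0.10 in the shallower, and Rars -0.01 and Hspe1 -0.02 in the deeper. The larger values of Slc1a5 (0.46) and Gdf15 (0.43) also differed in sign between the depth classes. Slc1a5 was at -0.05 in the deeper and 0.90 in the shallower libraries. The shallower class holds TG replicate 2, at 81.7 CPM of Slc1a5, while TG replicate 4 in that class was at 34.5 CPM. Gdf15 was at 1.05 in the deeper and -0.09 in the shallower libraries. Without 1 library the ranges were -0.08 to 0.10 for Ddit3, -0.01 to 0.26 for Phgdh, -0.04 to 0.12 for Psat1, -0.05 to 0.07 for Shmt2, -0.03 to 0.06 for Nfe2l1, -0.33 to 0.02 for Slc7a1, -0.08 to 0.03 for Slc3a2, -0.03 to 0.07 for Kars and -0.17 to 0.14 for Dld. The correlation of Atf4 ran from -0.17 to 0.40 with Trib3, -0.57 to 0.44 with Asns, -0.17 to 0.11 with Psph and -0.38 to 0.36 with Mthfd2 (settings chosen after seeing the data).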
